A study of Rattus norvegicus with 30 samples.

Results

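The vehicle hearts of this rat study were 12 arrays of its 30, 3 at each of 1, 3, 24 and 72 h, and were taken by their titles. They came from male Wistar Han rats, Crl:Wi(Han), an outbred stock, that had received vehicle at a dose of 0; the other 18 arrays came from animals given isoproterenol, a beta-adrenergic agonist, and entered here the quantile normalization and the estimate of the spread. Heart tissue kept in RNAlater was profiled on the 1-colour Affymetrix RAT230_2 array, and 31099 probe sets were deposited. The source field calls the material cardiac muscle and the tissue field heart, without naming the chamber. Every vehicle group shared the same stock, sex, tissue and dose of 0 and differed in sampling time. The titles number the 3 arrays of each time as biological replicates, and a heart below means the sample on 1 array. The sources used here do not give the vehicle itself, its route, the animals' age, or the clock time of dosing and sampling. Beyond the replicate label they do not state whether each array is a separate animal. The p-values therefore measure the spread between arrays, estimated over all 30 and not over the 12 vehicle arrays alone unless stated. The study text gives the last time as 48 h and the labels as 72 h; the labels were followed. No undosed group was analysed here, so differences are among the 4 times and not from an untouched state.

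The heart is mostly cardiomyocyte by mass, and its messenger pool is dominated by transcripts for the contractile filaments, calcium cycling and mitochondrial fuel oxidation. Immediate early genes such as Fos are switched on within minutes of many stimuli, handling included, and their transcripts are short-lived. Heart cells also carry a circadian clock, in which Bmal1 and Clock drive transcription of the Per and Cry repressors and of output factors such as Dbp and Tef, whose transcripts swing over the day.

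Values are log2(intensity + 16) after quantile normalization over the 30 arrays, and differences on this scale understate the change of dim probe sets. Over the 12 arrays the deposited intensity summed to between 4265475 and 9675636 per array, with array medians between 23.5 and 49.3, and the correlation between arrays lay between 0.932 and 0.978. The number of arrays limits the precision: the median within-time SD of a probe set was 0.296, and the median standard error of a difference between 2 times was 0.255. The third array of 3 h stood apart, with 8.71% of probe sets more than 1 log2 unit from the mean of its time mates, and the counts without it are given at the end. Array numbers ran from 4 to 6 at 1 h, 7 to 9 at 3 h, 16 to 18 at 24 h and 19 to 21 at 72 h, so the order of the arrays and the sampling time cannot be told apart.

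The brightest probe sets belonged to sarcomere, calcium pump and mitochondrial genes. The mitochondrially encoded cytochrome oxidase gene COX2 led, with a lowest, median and highest normalized value of 13.35, 13.53 and 13.53. It was followed by Atp2a2, the calcium pump of the sarcoplasmic reticulum, by Tpm1, alpha-tropomyosin, by Myh6, the fast cardiac myosin heavy chain, and by Tnnt2, cardiac troponin T. The median of Myh6 was 13.34 and that of Tnnt2 was 13.32. Other genes among the 25 brightest were Mb, myoglobin, Fabp3, the heart fatty acid binding protein, Slc25a4, the adenine nucleotide carrier, Ckmt2, the mitochondrial creatine kinase of muscle, Pln, the inhibitor of the calcium pump, Cryab, a small heat shock protein, and the ventricular light chains Myl2 and Myl3. Brightness also reflects the probes, so this order ranks probe sets and not molecules. By the deposited intensity without normalization, 24 of the same 25 were chosen.

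Whole pathways lay at the top of the range. A percentile rank here is the place of a gene's probe set among the 31042 that are not controls. All 19 markers of ventricular cardiomyocytes lay in the brightest 5%, against 1206 of 14217 genes with a probe set. The brightest 5% also held 32 of 35 oxidative phosphorylation genes, 22 of 23 fatty acid oxidation genes and 20 of 21 ribosomal protein genes. Glycolysis had 16 of 24 there, and heat shock proteins 10 of 20. These genes also varied less among hearts than most: the median within-time SD was 0.0721 for the ventricular markers, 0.0816 for oxidative phosphorylation and 0.131 for fatty acid oxidation, against 0.266 over all genes. Quantile normalization gives all arrays the same set of values. Whether it or the upper limit of the array's range bears on these small SDs was not tested.

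The other cells of the heart were represented to different degrees. Fibroblast markers had a median percentile rank of 94.4 and all 15 were above the filter on every array; among them Dcn, decorin, had a median of 12.14 and Tcf21, a transcription factor of cardiac fibroblasts, 7.20. Endothelial markers had a median rank of 89.9, with Kdr, the main VEGF receptor, at 10.40 and Pecam1 at 9.15. Mural markers had a median rank of 80.8, with Pdgfrb at 7.29. Macrophage markers were dimmer, at a median rank of 60.7, with C1qa at 8.12 and Csf1r at 7.72, while Ccr2 and Itgam never reached the filter, which lies at 5.31 on the log2 scale. In such bulk tissue, fewer cells of a type and less RNA per cell cannot be told apart.

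Markers of several other cell types were at or below the level of the filter. Of 9 neutrophil genes 1, Lcn2, was above the filter on all 12 arrays, and Cxcr2, Camp, Fcnb and Il1r2 were above it on none. Of 14 adipocyte genes 6 were above it on no array, Adipoq, Plin1 and Lep among them; Fabp4, at 11.33, stands in the endothelial list too, and Cidea, at 10.65, in the list of fasting and PPAR targets. Of 16 skeletal muscle genes 7 were above it on none, including Myod1, Pvalb and Tnnc2. The bright members of that list were Acta1 and Ckm, which the heart expresses, and Myh1, whose probe set carries the suffix of a design that can match several related genes and is uncertain here. Lymphocyte markers were dim apart from Cd74, which other antigen-presenting cells also make: Lck had a median of 6.45, and Cd79b and Cd3d were above the filter on no array. The erythroid gene Hbb, beta-globin, had a median of 12.68.

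Ventricular markers were even among the hearts and atrial markers were not. The normalized intensities of the 19 ventricular markers summed to between 153000 and 158000 on the 12 arrays, a range of 1.04-fold, or 1.19-fold with each array centred on its median. The 9 atrial markers summed to between 5500 and 11400, a range of 2.07-fold, or 2.02-fold with that centring, with the second array of 24 h highest and the second array of 72 h next at 9690. The other 10 arrays summed to between 5500 and 7780.

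Myl7, Myl4, Sln and Nppa, all known for atrial muscle, were each highest or next to highest on the second array of 24 h. Myl7, the atrial regulatory myosin light chain, was 6.76, 5.36 and 4.95 at 1 h, 5.54, 5.82 and 4.61 at 3 h, 5.86, 10.41 and 5.24 at 24 h, and 5.00, 8.39 and 5.87 at 72 h. Myl4, the atrial essential light chain, was 9.51 and 7.75 on the same 2 arrays against a median of 5.85 on the other 10. Both genes were thus high on those 2 hearts, and Myl7 was at most 6.76 on the rest. Sln, sarcolipin, an atrial regulator of the calcium pump, was 8.30 on the second array of 24 h but 6.52 on the second array of 72 h, where the first array of 72 h was higher at 7.0. Nppa, atrial natriuretic peptide, was 10.90 and 11.13 on the 2 arrays, yet it reached 10.76 on the second array of 3 h. Gja5 and Kcnj3 did not single out those arrays: Gja5 was 7.30 and 7.70 against a median of 7.42 on the other 10, and Kcnj3 was 6.92 and 6.51 against 6.87. None of the 9 atrial genes passed the F test among the times.

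**Figure D1:**
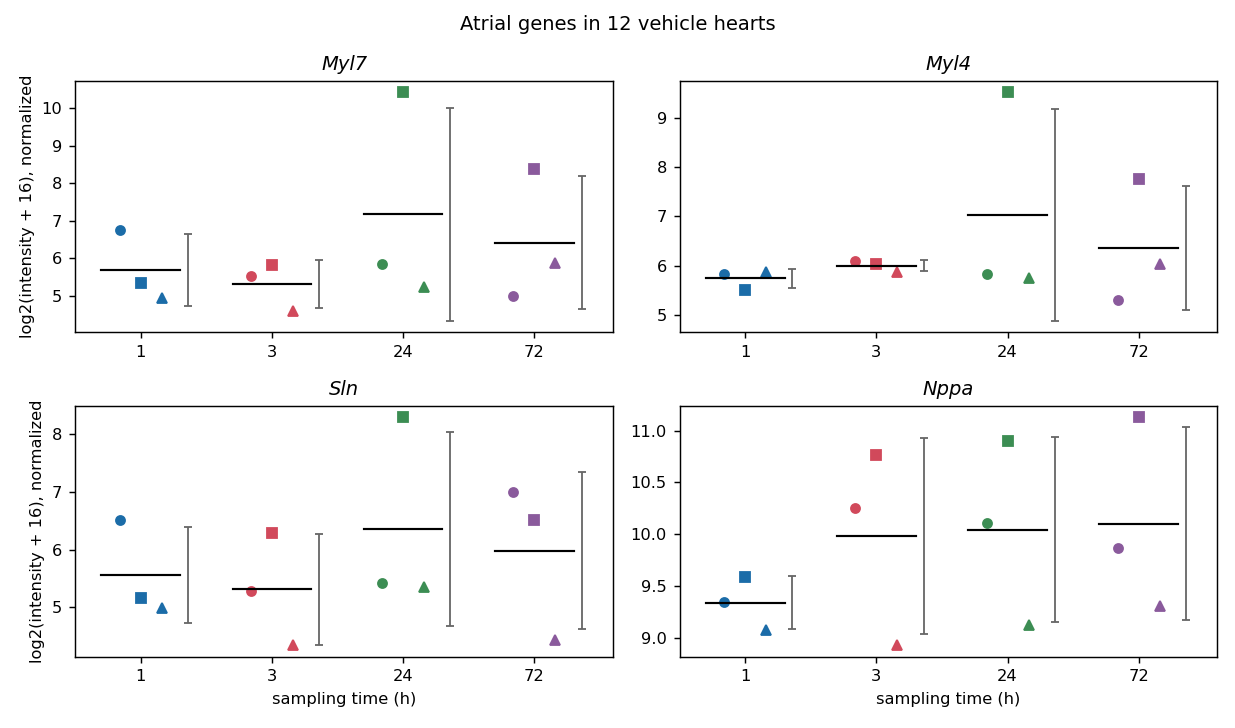
Normalized log2(intensity + 16) (y axis) of 4 atrial genes by sampling time (x axis, h); points are single arrays (circle, square and triangle for replicates 1, 2 and 3), black lines are means and grey bars are SD (n = 3). The squares at 24 and 72 h lie above the other arrays for Myl7 and Myl4.

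Other cell type sums varied with those hearts in part. The fibroblast sum was highest on the second array of 72 h, at 32700, and lowest on the first array of 72 h, at 22600. The 7 valve and cartilage genes, most of them near the filter, summed to 436 on the second array of 72 h and to at most 285 elsewhere. The macrophage sum ranged 1.75-fold, from 2170 to 3810, the endothelial sum 1.22-fold and the mural sum 1.15-fold. With each array centred on its median instead, these ranges were 2.44-, 1.84- and 1.42-fold, with the third array of 3 h lowest in the endothelial and mural sums, and the lowest fibroblast sum was on the third array of 72 h. None of the markers in these 5 lists passed the F test among the times.

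Genes that varied most among hearts of 1 time included major histocompatibility genes and genes of host defence. RT1-CE10, a class I gene, was 8.69, 5.78 and 9.21 at 1 h, 6.81, 5.44 and 9.34 at 3 h, 6.30, 5.68 and 8.65 at 24 h, and 6.53, 7.08 and 8.81 at 72 h. Its values lay either at 8.65 and above, on 5 arrays, or at 7.08 and below, on 7, and both kinds occurred at every time. Its probe set is of the design that can match related genes, so which class I gene it reports is uncertain. The class II gene RT1-Bb was 5.26 on the second array of 1 h and 5.32 on the first of 24 h, against 7.11 to 8.76 on the other 10 arrays.

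Genes outside that family also varied widely among hearts, some in separate low and high levels and others more gradually. Sgcb, beta-sarcoglycan of the muscle membrane complex, lay between 7.16 and 8.17 on 4 arrays, at 3, 24 and 72 h, and between 10.06 and 10.99 on the other 8. Card9, an adaptor of antifungal signalling, ranged from 5.18 to 9.07, with both of these extremes among the arrays of 3 h. Ifit1, an interferon-induced gene, ranged from 4.58 to 7.33. Mt2A, metallothionein, was 4.90 on the second array of 3 h against 7.05 to 8.68 elsewhere. Reg3b, an antibacterial lectin, was highest on the second arrays of 72 h and 24 h, at 8.29 and 7.45. Within-time SDs of these 7 genes lay between 0.994 and 1.67, above the 90th percentile over all probe sets tested, 0.501; they were chosen for their spread, so this is a description.

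Which genes differed among the 4 times was asked with a limma moderated F test over 23582 probe sets, adjusted by the Benjamini-Hochberg method. Few did: 20 probe sets passed, 0.0848% of those tested, and 2575 had an unadjusted p under 0.05, 10.9% of those tested. The 20 included 6 genes by their brightest probe set: Fos, Klf2, Sgk1, Per2, Shoc2 and Lactb. Of pairs of times, 24 h against 3 h had the most calls and 72 h against 3 h had none. With each of the 12 arrays left out in turn, the F test of Klf2 and Sgk1 passed 9 times, of Fos 7, of Lactb and Shoc2 4 and of Per2 2.

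Between 1 and 3 h, 3 genes passed the test. Fos, a part of the AP-1 factor, Sgk1, a kinase induced by glucocorticoids, and Klf2, a transcription factor of endothelium, were lower at 3 h, and no gene was higher. These 3 were 0.0127% of the 23582 probe sets tested, of which 1167 were lower and 907 higher at an unadjusted p under 0.05.

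Fos was 8.76, 8.66 and 8.27 at 1 h, 5.65, 5.19 and 5.78 at 3 h, 6.84, 6.94 and 6.62 at 24 h, and 6.38, 6.84 and 6.19 at 72 h. All hearts of 1 h were above all others, and all hearts of 3 h were below all others. The difference of 3 h from 1 h was -3.03 ± 0.49 (SE), or 8.14-fold (limma adjusted p = 0.0065), with a 95% interval of -4.03 to -2.02. In the fit of the 12 vehicle arrays alone its adjusted p was 1.47e-05, but in the fit of 30 it was 0.143 without the first array of 1 h; the second array of 1 h and the second of 3 h also ended the call when left out, as did a pseudocount of 64 and robust variance. In the fit of 30 the spread of Fos came from the isoproterenol arrays too, while its within-time SD on the vehicle arrays was 0.275. The mean of Fos at 24 h, 6.80 ± 0.163 (SD, n = 3), lay between those of 1 h and 3 h.

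Klf2 was 10.76, 10.77 and 10.09 at 1 h, 9.52, 9.55 and 9.51 at 3 h, 10.33, 10.15 and 10.02 at 24 h, and 10.31, 9.98 and 9.99 at 72 h. The hearts of 3 h were below those of every other time, and those of 1 h overlapped with 24 and 72 h. The difference of 3 h from 1 h was -1.01 ± 0.16, or 2.02-fold (limma adjusted p = 0.0065). Klf2 had 3 dimmer probe sets, none of which passed: 1 had means of 8.36 at 1 h and 7.58 at 3 h, another 7.10 and 7.18, and the last 6.32 and 6.26.

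Sgk1 was 9.88, 9.39 and 8.44 at 1 h, 7.36, 7.93 and 7.69 at 3 h, 8.35, 8.37 and 7.98 at 24 h, and 8.5, 8.11 and 8.12 at 72 h. Every heart of 3 h was below every other heart. The difference of 3 h from 1 h was -1.58 ± 0.25, or 2.98-fold (limma adjusted p = 0.0065). Klf2 and Sgk1 lost the call without the first array of 1 h, with adjusted p of 0.143 and 0.163, without the second array of 1 h, without normalization, and in the fit of the 12 arrays alone, with 0.0939 and 0.114. Over the 12 arrays, Sgk1 and Klf2 were the genes past the F test most like Fos, with Pearson r of 0.864 and 0.857, a description of genes chosen for differing among the same times.

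Across the immediate early genes, 2 of the 39 tested passed the F test, Fos and Klf2, and 14 had an unadjusted p under 0.05, or 35.9%, beside 10.7% of all genes. This list and those counted below were chosen with earlier results of these data known, so such shares are descriptions. In 15 of the 39 all 3 hearts of 3 h lay below all 3 of 1 h, where 8.43% of all probe sets tested did, and in none did they lie above, where 6.96% did. The mean was lower at 3 h in 33 of 39, and the median difference was -0.29, beside -0.01 over all probe sets. With each array centred on its median it was -0.51, and without the third array of 3 h -0.28. The later times lay below 1 h as well. At 24 h the mean was lower than at 1 h in 34 of 39, with a median difference of -0.34. In 13 all hearts of 24 h lay below those of 1 h, where 7.87% of all probe sets tested did. At 72 h the mean was lower than at 1 h in 36 of 39, with a median difference of -0.30. In 8 all hearts of 72 h lay below those of 1 h, where 8.22% did. Among the 15 at 3 h were Egr1, a zinc finger factor, Nr4a1 and Nr4a3, orphan nuclear receptors, Dusp1, a phosphatase of MAP kinases, Atf3, Ier2 and Jun.

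Among those that did not pass, Dusp1 was 10.88, 10.45 and 10.41 at 1 h against 9.39, 9.53 and 9.58 at 3 h, a difference of -1.08 ± 0.24 (limma adjusted p = 0.139). Its levels at 24 and 72 h, between 9.89 and 10.23, lay between those groups, while a second probe set of Dusp1 was highest at 72 h. Egr1 was 10.21, 8.73 and 9.05 at 1 h and 7.45, 8.32 and 7.92 at 3 h, with 8.66 to 8.97 at 72 h. Atf3, a stress-induced factor, was 6.52, 6.50 and 7.51 at 1 h and at most 6.26 on all later arrays. Without the third array of 3 h its F test passed, with a limma adjusted p of 0.0489. Fosb, Egr3 and Fosl1 were dim at all times, and Jund, Rgs2 and Gadd45b had higher means at 3 h than at 1 h. A second, dim probe set of Jund went the other way, with means of 5.16 at 1 h and 4.36 at 3 h. Other probe sets of Jun and Nr4a3 overlapped between these times.

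**Figure D2:**
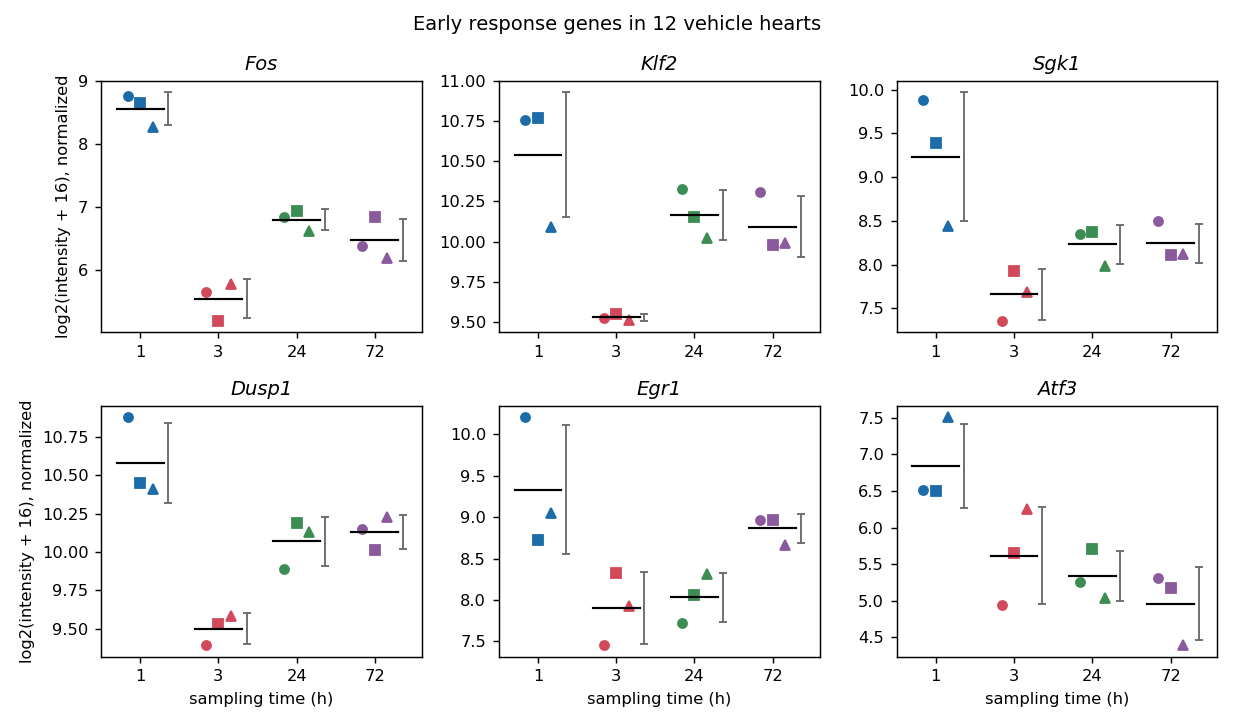
Normalized log2(intensity + 16) (y axis, a range of its own in each panel) of 6 early response genes by sampling time (x axis, h); points are single arrays (circle, square and triangle for replicates 1, 2 and 3), black lines are means and grey bars are SD (n = 3). For Fos, Klf2, Sgk1, Dusp1, Egr1 and Atf3 the 1 h arrays lie above the 3 h arrays.

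Targets of the glucocorticoid receptor, the receptor of the adrenal stress hormone, had lower means at 3 h than at 1 h in 17 of the 20 tested. The F test passed 1, Sgk1, and 8 had an unadjusted p under 0.05, or 40%, beside 10.7% of all genes. As this list too was chosen with earlier results of these data known, the share is a description. In 8 the hearts of 3 h all lay below those of 1 h, where 8.43% of all probe sets tested did, and the median difference was -0.42. At 72 h, 7 lay below those of 1 h, where 8.22% of all probe sets did, with a median difference of -0.30. Between 72 and 3 h the median difference was 0.07. In 3 the hearts of 72 h all lay above, where 3.58% of all probe sets did, and in 3 below, where 3.8% did. Fkbp5, a co-chaperone of the receptor, was 8.22, 8.39 and 8.0 at 1 h, and its means then were 7.77, 7.55 and 7.39 in order of time. Pdk4, a kinase that restrains glucose oxidation, was 11.19, 11.29 and 10.83 at 1 h and 9.88, 10.40 and 9.24 at 24 h, and those groups did not overlap; all hearts of 24 h lay below those of 1 h for 7.87% of all probe sets tested. Tsc22d3, a strongly glucocorticoid-induced gene, had means of 10.41, 10.10, 10.34 and 10.11, with an F test p of 0.259 before adjustment. Some members, such as Dusp1 and Per1, stand in other lists too.

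Cldn5 and Sox17, genes of endothelium, had lower values at 3 h without passing the test. Cldn5, the tight junction protein of endothelium, was 8.72, 8.74 and 8.02 at 1 h and 7.52, 6.62 and 7.25 at 3 h, a difference of -1.36 ± 0.26 (limma adjusted p = 0.0774). Its F test passed without the third array of 3 h (adjusted p = 0.047). Sox17, an endothelial transcription factor, was 9.04, 9.05 and 8.83 at 1 h and 8.16, 7.94 and 8.43 at 3 h. Pecam1, by contrast, lay between 9.07 and 9.42 on all 12 arrays, and the median difference of 3 h from 1 h over the 16 endothelial genes was 0.03.

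Between 3 and 24 h, 13 probe sets were higher and 18 lower at 24 h, 0.0551% and 0.0763% of those tested and 0.131% together, and by the brightest probe set 8 genes were higher and 5 lower. The genes higher at 24 h included the clock repressors Per2 and Bhlhe41. Those lower at 24 h included Ucp3, a mitochondrial carrier of muscle that follows fatty acid supply, and Cdkn1a, a cell cycle inhibitor. The count rested on single arrays: 242 probe sets passed without the third array of 3 h, 1.03% of those tested, and as few as 1 with another array left out. Without the second arrays of 24 and 72 h, the 2 highest in the atrial gene Myl7, 2 passed, and the part of atrial content in these calls was not tested.

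Per2 was 7.36, 7.46 and 7.56 at 1 h, 6.68, 6.60 and 6.67 at 3 h, 7.91, 8.81 and 8.21 at 24 h, and 7.28, 7.21 and 7.59 at 72 h. The hearts of 3 h were the lowest and those of 24 h the highest, with no overlap with any other time, and the levels at 1 and 72 h overlapped. The difference of 24 h from 3 h was 1.66 ± 0.28, or 3.16-fold (limma adjusted p = 0.0105), and the fit of the 12 arrays alone gave 0.0186. Without the second array of 3 h it was 0.103, and without the second array of 24 h the call was also lost, as it was without normalization and without the 2 arrays highest in Myl7. A second probe set of Per2 was at or below the filter on all but 1 array.

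Bhlhe41, a repressor of the clock, was 8.06, 7.94 and 8.58 at 1 h, 8.14, 8.05 and 8.22 at 3 h, 9.42, 9.37 and 9.25 at 24 h, and 8.70, 8.73 and 9.01 at 72 h. Every heart of 24 h was above every other, and those of 72 h were above those of 1 and 3 h. The difference of 24 h from 3 h was 1.21 ± 0.26, or 2.32-fold (limma adjusted p = 0.0407), and each of 7 single arrays left out ended the call, with a highest adjusted p of 0.223 without the second array of 3 h. Its difference of 72 h from 1 h, 0.62, turned to -0.04 without normalization. The difference of 24 h from 3 h also lost its call without normalization, without the filter, without the intensity trend, with the beta-actin covariate (limma adjusted p = 0.0512) and without the 2 arrays highest in Myl7. Its F test, with an adjusted p of 0.0741, passed at 0.042 without the third array of 3 h.

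The output factors Dbp and Tef and the repressor Per1 also had their highest mean at 24 h, without passing the test. Dbp, a D-box binding activator, was 7.32, 7.90 and 8.41 at 1 h, 7.76, 7.33 and 7.47 at 3 h, 9.52, 8.92 and 9.18 at 24 h, and 8.53, 7.79 and 9.52 at 72 h. Its difference of 24 h from 3 h was 1.69 ± 0.39 (limma adjusted p = 0.0665), and the hearts of 72 h spanned from the level of 3 h to that of 24 h. Tef, its relative, was 8.87, 8.96 and 9.32 at 24 h and 8.14, 8.14 and 8.5 at 3 h, a difference of 0.79 ± 0.23 (limma adjusted p = 0.135). Dimmer probe sets of Tef did not peak at 24 h: 1 had its highest mean at 72 h, at 5.73, and another at 1 h, at 5.71. Per1 was 7.88, 7.84 and 8.27 at 24 h and 6.69, 6.11 and 5.04 at 3 h, while at 72 h it was 8.01, 5.25 and 7.44. Wee1, a cell cycle kinase under clock control, was 7.35, 7.63 and 7.27 at 24 h and 6.61, 6.63 and 5.01 at 3 h.

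Bmal1, an activator of the clock, had its lowest mean at 24 h without passing the test. It was 6.90, 6.77 and 6.38 at 1 h, 6.97, 7.38 and 7.19 at 3 h, 5.84, 5.54 and 6.30 at 24 h, and 6.73, 6.65 and 5.87 at 72 h. All hearts of 24 h were below those of 1 and 3 h, and the difference of 24 h from 3 h was -1.29 ± 0.32 (limma adjusted p = 0.0858). Npas2, a partner of Bmal1, was 6.37, 6.39 and 6.73 at 24 h and 7.24, 7.04 and 7.38 at 3 h (limma adjusted p = 0.411). Clock, its other partner, had means between 8.23 and 8.49 at the 4 times, closer together than its arrays were. Nr1d1, a repressor of Bmal1, had means of 9.41, 9.71, 9.77 and 9.97 in order of time, but its difference of 72 h from 1 h, 0.55, turned to -0.11 without normalization.

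Counted together, 1 of 16 core clock genes passed the F test, Per2, and 6 had an unadjusted p under 0.05, or 37.5%, beside 10.7% of all genes. Both clock lists were chosen with earlier results of these data known, so their shares are descriptions. Without the third array of 3 h 2 passed, Per2 and Bhlhe41, and the call of Per2 was lost with 10 of the 12 arrays left out in turn. Of 15 output genes none passed the limma F test and 3 had an unadjusted p under 0.05, or 20%. In 6 of the output genes all hearts of 24 h lay above those of 3 h, where 8.77% of all probe sets tested did, and in none below, where 6.96% did. In the core list 4 lay above and 2 below. For 72 h against 24 h, 0 core genes lay above, where 5.93% of all probe sets tested did, and 3 below, where 7.07% did. Of the 6 genes past the F test, Per2 was the most like Dbp, with Pearson r of 0.727 over 12 arrays. It was the 1 clock gene among them, and all were chosen for differing among the same times, so this is a description.

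**Figure D3:**
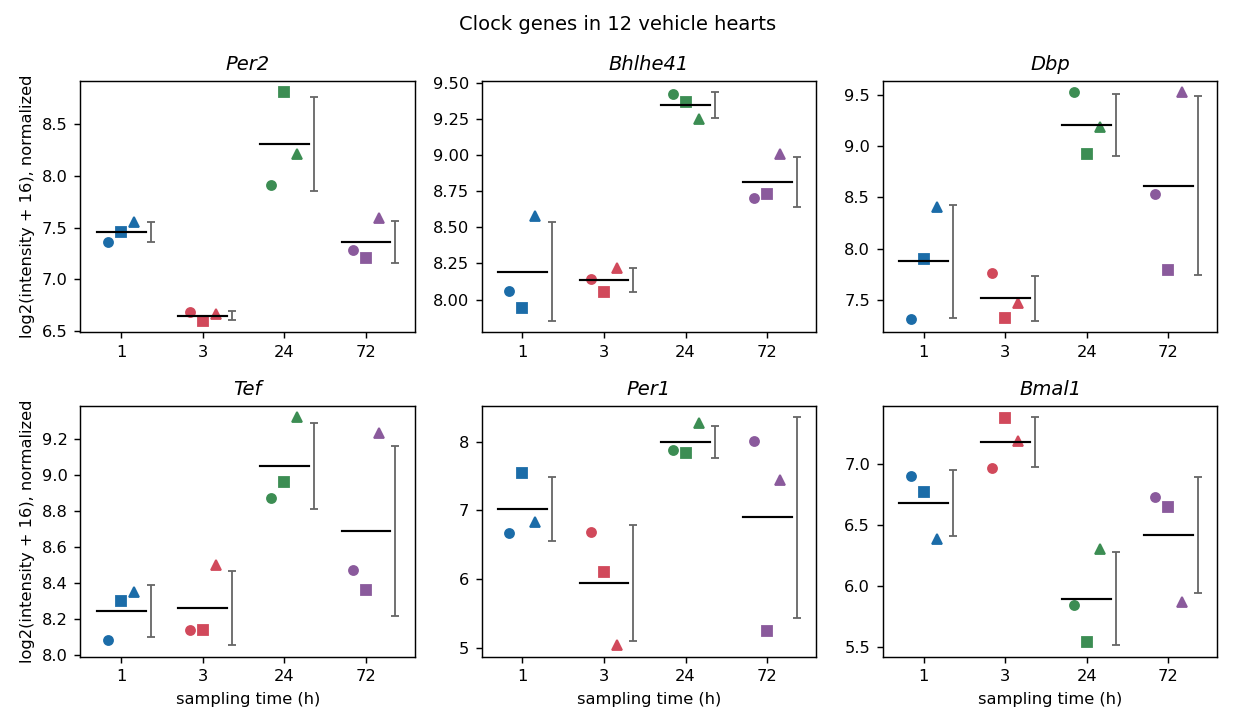
Normalized log2(intensity + 16) (y axis, a range of its own in each panel) of 6 clock genes by sampling time (x axis, h); points are single arrays (circle, square and triangle for replicates 1, 2 and 3), black lines are means and grey bars are SD (n = 3). Per2, Bhlhe41, Dbp, Tef and Per1 have their highest mean at 24 h and Bmal1 its lowest.

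The clock genes with values above are known to be regulated through short promoter elements, so the windows of those whose sequence held one are shown. Windows run from 250 bases before to 50 after the gene's start, 5′ to 3′ on the gene's strand, from RefSeq on the GRCr8 build; 22 of the 33 listed clock genes had exactly 1 window. Both strands were searched for the E-box CACGTG, which Clock and Bmal1 bind, and for the D-box letters TTATGTAA, which Dbp and Tef bind, and matches are in capitals.
Per2, chr9:99496944-99497243, minus strand: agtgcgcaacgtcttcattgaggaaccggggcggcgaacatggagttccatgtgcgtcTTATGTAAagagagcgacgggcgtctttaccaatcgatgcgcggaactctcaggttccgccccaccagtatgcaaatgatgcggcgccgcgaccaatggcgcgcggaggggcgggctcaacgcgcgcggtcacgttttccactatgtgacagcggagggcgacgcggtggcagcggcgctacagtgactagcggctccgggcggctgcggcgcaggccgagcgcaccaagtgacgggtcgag
Bhlhe41, chr4:180569306-180569605, minus strand: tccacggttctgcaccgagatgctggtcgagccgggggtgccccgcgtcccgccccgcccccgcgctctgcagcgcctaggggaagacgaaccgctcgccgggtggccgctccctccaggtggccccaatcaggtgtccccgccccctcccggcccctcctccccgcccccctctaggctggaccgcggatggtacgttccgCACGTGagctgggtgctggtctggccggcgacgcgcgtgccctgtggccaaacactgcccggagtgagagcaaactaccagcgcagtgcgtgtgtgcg
Tef, chr7:115206577-115206876, plus strand: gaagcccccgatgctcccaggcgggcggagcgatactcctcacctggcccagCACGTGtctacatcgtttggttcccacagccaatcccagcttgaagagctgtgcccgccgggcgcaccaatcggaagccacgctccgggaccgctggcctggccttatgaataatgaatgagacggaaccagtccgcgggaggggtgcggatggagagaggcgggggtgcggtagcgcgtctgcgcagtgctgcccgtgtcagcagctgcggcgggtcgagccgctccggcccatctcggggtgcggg
The window of Per2 holds a D-box and those of Bhlhe41 and Tef hold an E-box each. In all, 4 of the 22 windows held the E-box, against 6.42% of all 33469 windows of the same length, and 2 held the D-box, against 0.893%. A match describes these letters only, and binding was not measured.

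Among the other genes past the test at 24 h against 3 h, Cd1d1, which presents lipid antigens to T cells, had the largest difference. It was 5.88, 8.90 and 8.07 at 1 h, 5.62, 5.78 and 6.30 at 3 h, 8.58, 8.63 and 8.69 at 24 h, and 7.92, 8.47 and 8.05 at 72 h. The 3 h hearts were low and the 24 h hearts tight, but 1 heart of 1 h was as low as those of 3 h and another was the highest of all. The difference was 2.73 ± 0.56, or 6.66-fold (limma adjusted p = 0.0395), and the adjusted p was 0.203 without the second array of 3 h and 0.107 in the 12 arrays alone. The first array of 3 h and each array of 24 h also ended the call when left out. Cd1d1 was also the 1 gene of the thymus list with a probe set, so that list could not be read.

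Ucp3 was 7.79, 7.34 and 6.73 at 1 h, 7.76, 7.99 and 7.66 at 3 h, 6.45, 5.90 and 6.38 at 24 h, and 7.32, 6.45 and 6.15 at 72 h. The hearts of 24 h lay below those of 1 and 3 h, and the difference from 3 h was -1.56 ± 0.30, or 2.95-fold (limma adjusted p = 0.0394). Cdkn1a was 9.36, 9.28 and 9.16 at 3 h and 7.88, 7.63 and 8.31 at 24 h, a difference of -1.33 ± 0.28 (limma adjusted p = 0.0407). Ndufs4, a subunit of complex I, was 9.84, 9.39 and 9.10 at 3 h and 8.83, 8.55 and 8.32 at 24 h, a difference of -0.88 ± 0.16 (limma adjusted p = 0.0251). These 3 lost the call in the fit of the 12 arrays alone, with adjusted p from 0.107 to 0.108, and without the second array of 3 h, with 0.203 for Ucp3 and Cdkn1a and 0.136 for Ndufs4. Each also lost it without the second or the third array of 24 h.

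The remaining genes past the test in this pair had differences between 0.72 and 1.08 in size. Higher at 24 h were Spry1, an inhibitor of growth factor signalling, by 0.99 ± 0.20, Fzd4, a Wnt receptor, by 0.82 ± 0.17, Fcsk, fucose kinase, by 1.08 ± 0.22, Pxylp1, a phosphatase of xylosyl phosphate, by 0.72 ± 0.15, and the Y-linked histone demethylase gene Uty by 0.82 ± 0.17. Lower were Atp6v0a1, a subunit of the vacuolar proton pump, at -0.95 ± 0.20, and Eepd1, at -0.92 ± 0.19. Their limma adjusted p lay between 0.0395 and 0.0407, just inside the threshold, and all 7 lost the call without the second array of 3 h or of 24 h and in the fit of the 12 arrays alone.

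Genes of fuel use, to which Ucp3 belongs, were counted by list. Of 21 fasting and PPAR targets none passed the limma F test. An unadjusted p under 0.05 was found for 4, or 19%, beside 10.7% of all genes: Ucp3, Pdk4, Cpt1a and Angptl4. Cpt1a, the liver form of the enzyme that admits fatty acids to mitochondria, was 9.59, 9.78 and 9.33 at 24 h and 8.78, 9.03 and 9.20 at 3 h, so it was higher where Ucp3 and Pdk4 were lower. Fasn, fatty acid synthase, was 6.58, 6.58 and 6.65 at 3 h and 6.92, 7.66 and 7.67 at 24 h, without overlap (limma F test, adjusted p = 0.27). All hearts of 24 h lay above those of 3 h for 8.77% of all probe sets tested. None of the 23 fatty acid oxidation genes, 35 oxidative phosphorylation genes or 24 glycolysis genes passed the limma F test. At an unadjusted p under 0.05 there were 1, 1 and 2, or 4.35%, 2.86% and 8.33%, below the share of all genes. On the same quantile-normalized scale, the 19 ventricular markers had a median span between the highest and lowest of the 4 means of 0.11, beside 0.37 over all genes.

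Between 24 and 72 h, 13 probe sets were higher and 2 lower at 72 h, 0.0551% and 0.00848% of those tested and 0.0636% together. All hearts of 72 h lay above those of 24 h for 5.93% of probe sets tested and below for 7.07%. The named genes were Shoc2, a scaffold of the Ras pathway, Lactb, a mitochondrial protease-like protein, and Atp6v0a1. Lactb was 5.38, 5.01 and 5.49 at 24 h and 6.90, 6.32 and 6.46 at 72 h, a difference of 1.27 ± 0.21 (limma adjusted p = 0.0135). Shoc2 was 6.35, 6.21 and 6.41 at 24 h and 7.48, 7.55 and 8.42 at 72 h, a difference of 1.49 ± 0.26 (limma adjusted p = 0.0135). At 3 h Shoc2 was 6.60, 8.06 and 7.18, and the 24 h hearts were the lowest of the 4 times for both genes. In the fit of the 12 arrays alone the adjusted p were 0.122 and 0.203, and both calls ended without normalization and without the first array of 24 h or the third of 72 h. That of Lactb also ended without the first array of 72 h and that of Shoc2 without the third of 24 h.

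Atp6v0a1 was 8.14, 7.69 and 7.60 at 3 h, 6.82, 6.86 and 6.89 at 24 h, and 8.10, 7.56 and 7.98 at 72 h, so the 24 h hearts were low and the others overlapped. Its difference of 72 h from 24 h was 1.02 ± 0.20 (limma adjusted p = 0.0284). This call ended without each array of 24 h and without the first or the third of 72 h, with an adjusted p of up to 0.232, in the fit of the 12 arrays alone (0.122), with median centring (0.192) and without normalization. Dimmer probe sets of Rab14, a regulator of membrane traffic, and Dst, a cytoskeletal linker, passed in the same direction, but the brightest probe set of each gene did not. For 9 genes in all, a probe set that was not the gene's brightest passed and the brightest did not, so what such a probe set reports is uncertain.

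All 3 probe sets past the test at 24 h against 1 h had no gene name in the table used here. Probe set 1392613_at was 7.91, 8.30 and 8.11 at 1 h, 8.38, 7.78 and 8.12 at 3 h, 6.26, 6.15 and 6.54 at 24 h, and 6.48, 6.51 and 7.54 at 72 h. The hearts of 24 and 72 h were all below those of 1 and 3 h, and the difference of 24 h from 1 h was -1.79 ± 0.25, or 3.45-fold (limma adjusted p = 0.00101). It passed with each of the 12 arrays left out in turn and in the fit of the 12 alone (limma adjusted p = 0.0354). Probe set 1380306_at was 11, 10.87 and 10.91 at 1 h and between 7.99 and 9.46 on all arrays of 24 and 72 h, and 1397225_at was 9.07, 9.11 and 9.08 at 1 h and 6.84, 6.91 and 7.54 at 24 h. Their differences of 24 h from 1 h were -2.24 ± 0.35 and -1.99 ± 0.30, and both calls ended without the first array of 24 h, with limma adjusted p of 0.0873 and 0.0518. These 3 were the probe sets that passed 24 h against 1 h, 0.0127% of those tested, and 1380306_at was the 1 that passed 72 h against 1 h, 0.00424%.

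No probe set passed the limma test between 3 and 72 h, while 1054 had an unadjusted p under 0.05. With each array left out in turn between 0 and 3 passed, and with the beta-actin difference as a covariate 1 did. With 3 arrays at each time, differences of a few times the median standard error of 0.255 can go undetected. In this pair, all hearts of 72 h lay above those of 3 h for 3.58% of probe sets tested and below for 3.8%.

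Heat shock, cold-inducible and inflammatory genes were also read for signs of handling. Rbm3, an RNA-binding protein induced by cooling, was 8.87, 8.52 and 8.78 at 3 h and 9.72, 9.80 and 9.44 at 24 h (limma adjusted p = 0.106 for the difference of 0.93 ± 0.25). Hspa1a, the inducible heat shock protein, was 8.23, 9.0 and 9.61 at 1 h and 7.91, 7.76 and 8.0 at 72 h, where all hearts were lower. Of 20 heat shock genes none passed the limma F test, and 5 had an unadjusted p under 0.05, or 25%, beside 10.7% of all genes. Of 38 cytokine, chemokine and adhesion genes none passed, and 4 had an unadjusted p under 0.05, or 10.5%, about the share of all genes. Of 22 interferon response genes none passed, and 1 had an unadjusted p under 0.05, or 4.55%, below that share.

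RNA quality differed among hearts more than among times. The log2 difference between the 3′ and 5′ probe sets of the beta-actin control, which grows as RNA breaks or labelling falls short, was 1.58, 1.53 and 1.47 at 1 h, 1.06, 0.81 and 2.20 at 3 h, 1.37, 1.69 and 1.86 at 24 h, and 0.99, 2.08 and 1.35 at 72 h. The hearts of 1 h were alike and those of 3 and 72 h were spread, and the third array of 3 h was the highest. The first principal component, 22.5% of the variance, followed it over the 12 arrays, with Pearson r = -0.87 (permutation p = 2e-04) and Spearman rho = -0.923 (permutation p = 8e-05). Without the 2 arrays farthest from the median, r was -0.816. Within a time there are 3 arrays, too few for a value. With this difference as a covariate, 24 probe sets passed the limma F test in place of 20, and 17 were shared; Fos, Klf2, Sgk1 and Lactb were kept and Per2 and Shoc2 were lost.

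**Figure D4:**
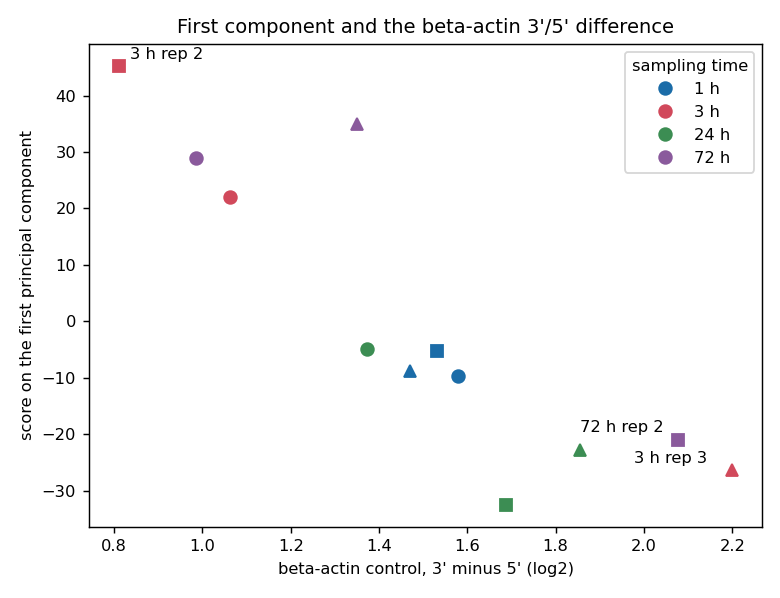
Score on the first principal component of the 12 vehicle arrays (y axis) against the log2 difference of the 3′ and 5′ beta-actin control probe sets (x axis); each point is an array, coloured by sampling time, with circle, square and triangle for replicates 1, 2 and 3. Arrays with a larger 3′ excess have lower scores, and the arrays of 3 h lie at both ends.

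Leaving out the third array of 3 h widened the list. The limma F test then passed 129 probe sets, 0.547% of those tested, and 19 of the 20 from all arrays were among them. Ucp3, Ndufs4 and Atp6v0a1 then passed the limma F test, with adjusted p of 0.0442, 0.0193 and 0.0242 in place of 0.0666, 0.0741 and 0.0505. Slc2a1, the basal glucose transporter, and Hif1a, the hypoxia-inducible factor, then passed as higher at 24 h than at 3 h, by 1.04 ± 0.24 and 1.06 ± 0.22 (limma adjusted p = 0.0329 and 0.0264). Rcan1, an inhibitor of calcineurin, was lower at 24 h, at -1.21 ± 0.26 (limma adjusted p = 0.0269). Slc2a1, Hif1a and Rcan1 passed in this pair only and not the limma F test. Their F test adjusted p were 0.0727, 0.0624 and 0.0593, in place of 0.269, 0.327 and 0.127 with all arrays. With all arrays Rcan1 was 11.19, 11.09 and 10.69 at 3 h and 10.14, 9.38 and 10.27 at 24 h, with no overlap. The second array of 72 h had a like effect on the count: 120 probe sets passed without it.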

How the data were processed

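Heart RNA of the vehicle groups was read on 12 Affymetrix RAT230_2 arrays of 1 colour, and the deposited values are 1 linear intensity per probe set and array; the sources used here do not give how the authors summarised, background-corrected and scaled them. Groups came from the sample titles. A pseudocount of 16 was added, log2 taken and all 30 arrays quantile normalized. Probe sets above the 40th percentile of all values in at least 3 arrays were tested, 23582 of the 31042 that are not controls. limma 3.58.1 in R 4.3.3 was fitted over all 8 groups with an intensity trend; the F test among the 4 vehicle times and its 6 pairs were each adjusted by Benjamini-Hochberg over all probe sets, with a threshold of 0.05. The script was tested on simulated data.

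Of all probe sets, 20826 had 1 gene name in GEO's platform annotation, 436 had several and 9780 were not listed; 57 were controls. The probe set with the highest mean stood for its gene. Named genes were those past a test, the 25 brightest, the 20 most variable and members of gene lists; a few others were chosen after their values were seen. The members and lists were chosen with earlier results of these data known. Alternatives were the normalization, pseudocount, filter, variance model, array weights, covariates and each array left out; leaving out the 2 arrays highest in Myl7 was chosen after seeing the data.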

Additional observations from a re-analysis of the deposited data

How the results depend on the processing

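Counts of probe sets past the limma test moved with most settings; the cause was not tested. With each of the 12 arrays left out in turn, the F test passed 3 to 129, against 20 with all arrays. The pairs passed 0 to 10 for 3 h against 1 h (3 with all), 1 to 10 for 24 h against 1 h (3), 0 to 7 for 72 h against 1 h (1), 1 to 242 for 24 h against 3 h (31), 0 to 3 for 72 h against 3 h (0) and 0 to 212 for 72 h against 24 h (15). The immediate early genes past the F test ranged from 0 to 4, the core clock genes from 0 to 2 and the glucocorticoid targets from 0 to 1.

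Of other settings, the F test passed 6 with the 12 arrays normalized and fitted alone, 13 with arrays centred on their medians, 7 without normalization, 36 with a pseudocount of 1, 10 without the intensity trend, 6 with only the 12 arrays in the fit, 1273 with array weights and 53 without the 2 arrays highest in Myl7. For 3 h against 1 h the count was 1 without normalization, 8 with a pseudocount of 1, 5 without the trend and 158 with weights. For 24 h against 1 h it was 5 with the 12 normalized alone, 15 centred, 8 with a pseudocount of 1, 5 in the fit of 12, 80 with weights, 6 with the actin covariate and 12 without the Myl7 arrays. For 72 h against 1 h it was 5 centred, 2 without normalization, 4 with a pseudocount of 64, 2 with the 60th percentile as filter, 1011 with weights, 3 with the actin covariate and 12 without the Myl7 arrays, and 0 with a pseudocount of 1, no filter, no trend or robust variance. For 24 h against 3 h it was 4 with the 12 normalized alone, 6 centred, 2 without normalization, 11 without a filter, 3 in the fit of 12, 168 with weights, 20 with the actin covariate and 2 without the Myl7 arrays. For 72 h against 3 h it was 1 with the actin covariate. For 72 h against 24 h it was 1 with the 12 normalized alone, 6 centred, 0 without normalization, 24 with a pseudocount of 64, 23 with the 60th percentile, 1 in the fit of 12, 611 with weights and 53 without the Myl7 arrays.

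Immediate early genes past the F test were 1 with the 12 normalized alone, without normalization, with a pseudocount of 64, with robust variance and in the fit of 12, 0 without the trend and 9 with weights. Core clock genes were 2 with the 12 normalized alone, a pseudocount of 64 or the fit of 12, 0 without normalization, filter, trend or the Myl7 arrays or with the actin covariate, and 4 with weights. Glucocorticoid targets were 0 with the 12 normalized alone, without normalization, without the trend and in the fit of 12, and 7 with weights.

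Arrays of the same replicate number did not pair: over 18 pairs of times and numbers the correlation of deviations ran from -0.192 to 0.184, with 2 over 0.1. With the replicate number as a block, 22 probe sets passed the F test, 5 passed 24 h against 1 h, 2 passed 72 h against 1 h and 19 passed 24 h against 3 h.

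The median difference over all probe sets was -0.01 for 3 h against 1 h and for 72 h against 1 h. With each array centred these medians were -0.10 and -0.13, and without normalization -0.25 and -0.44. Without normalization the median was also -0.16 for 24 h against 1 h, -0.20 for 72 h against 3 h and -0.27 for 72 h against 24 h. Differences of that size therefore have no settled sign. With 3 arrays a time, and signal near background for dim genes, small changes can go unseen.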
